A study of Mus musculus with 8 samples.

Results

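The genes followed here mark the cells of brain blood vessels and were measured in the RNA of whole newborn brains. They were the 10 identifiers, of 49585 in the count table for the C57BL/6J genome, that carry the symbols *Cldn5*, *Pecam1*, *Cdh5*, *Abcb1a*, *Mfsd2a*, *Slco1c1*, *Flt1*, *Kdr*, *Pdgfrb* and *Rgs5*. Of these, 8 mark endothelial cells and 2 mark the mural cells that wrap them. The RNA-seq libraries came from 8 female F1 pups of a C57BL/6J mother and a CAST/EiJ father (B × C), taken at postnatal day 1. The mothers drank water with 0 ppm CdCl2 (4 pups) or 50 ppm CdCl2 (4 pups) before and throughout gestation, so both groups share the hybrid genotype, the sex and the age, and the pups themselves were exposed only through the mother. Each pup came from its own litter. Each whole brain was pulverized, and RNA from a small portion of its tissue made 1 library. The comparison asked whether maternal Cd exposure was accompanied by a different level of blood vessel RNA in the newborn brain.

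Endothelial cells of the brain are sealed by tight junctions and carry transporters that select what passes between blood and brain, which together make the blood-brain barrier. Pericytes lie on the outside of the capillary in the same basement membrane and are recruited by platelet-derived growth factor from the endothelium. New vessels grow into the developing brain along gradients of vascular endothelial growth factor (VEGF), and the barrier is being completed around birth.

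The start regions of 7 of the 10 genes (*Cldn5*, *Abcb1a*, *Mfsd2a*, *Slco1c1*, *Flt1*, *Kdr* and *Rgs5*) were matched in the RefSeq promoter table of build GRCm38.p6, as windows of 300 bases. The start site of the *Abcb1a* window lies 92986 bases from the annotated start of the gene, and no annotated transcript start was found in it. Its matches may therefore not describe the start used here. The start sites of the other windows lie within 14 bases of the annotated gene start. *Cldn5*, *Rgs5*, *Flt1* and *Kdr* are printed 5′ to 3′ on the strand of the gene, the first because it had the highest level per exon length, the next because it had the smallest p-value among the 10, and the last pair because they encode the VEGF receptors. Capitals mark GGAAGT or its reverse complement ACTTCC, a string bound by ETS factors, the transcription factor family to which the endothelial regulators *Erg* and *Fli1* belong. The windows lie at chr16:18776597-18776896 (plus strand), chr1:169655251-169655550 (plus strand), chr5:147725962-147726261 (minus strand) and chr5:75978406-75978705 (minus strand), in that order.
Cldn5: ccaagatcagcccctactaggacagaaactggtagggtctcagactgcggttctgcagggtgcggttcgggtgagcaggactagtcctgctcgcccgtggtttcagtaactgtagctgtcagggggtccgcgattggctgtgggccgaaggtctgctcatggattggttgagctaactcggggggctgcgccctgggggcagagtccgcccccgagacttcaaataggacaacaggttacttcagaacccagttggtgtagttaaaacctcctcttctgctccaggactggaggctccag
Rgs5: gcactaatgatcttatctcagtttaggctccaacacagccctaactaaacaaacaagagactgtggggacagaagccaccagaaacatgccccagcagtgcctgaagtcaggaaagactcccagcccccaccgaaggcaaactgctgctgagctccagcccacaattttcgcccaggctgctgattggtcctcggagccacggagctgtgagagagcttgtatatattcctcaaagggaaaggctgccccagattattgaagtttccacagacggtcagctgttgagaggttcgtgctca
Flt1: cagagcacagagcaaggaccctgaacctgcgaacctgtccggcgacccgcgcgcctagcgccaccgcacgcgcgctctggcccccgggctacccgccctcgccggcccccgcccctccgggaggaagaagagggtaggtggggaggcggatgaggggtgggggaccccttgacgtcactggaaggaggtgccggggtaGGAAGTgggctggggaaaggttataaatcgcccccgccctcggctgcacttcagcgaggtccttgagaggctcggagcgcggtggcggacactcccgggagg
Kdr: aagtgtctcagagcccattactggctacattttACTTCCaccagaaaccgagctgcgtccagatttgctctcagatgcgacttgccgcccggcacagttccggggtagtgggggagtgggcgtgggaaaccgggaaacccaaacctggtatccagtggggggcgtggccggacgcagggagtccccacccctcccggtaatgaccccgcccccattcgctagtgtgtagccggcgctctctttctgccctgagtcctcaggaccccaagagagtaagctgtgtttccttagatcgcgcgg

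The ETS string began at position -52 from the start site in *Flt1* and at -217 in *Kdr*, and *Slco1c1* held one at -129. It was found in 3 of these 7 windows and in 23.8% of all 32851 promoters of that length when both strands were read. The GC box GGGCGG was found in *Cldn5*, *Flt1* and *Kdr* (35.7% of all promoters), and TATAAA in *Flt1* and *Slco1c1* (13.6%). The forkhead string TGTTTA was found in *Abcb1a*, *Slco1c1* and *Rgs5* (13.4%), the GATA string AGATAA in *Rgs5* alone (11.2%), and the SOX string ACAATG in none (12.6%). In *Slco1c1* the forkhead and TATA strings overlapped. These are matches of letters in a fixed window.

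All 10 genes were well covered, since the lowest count of any of them in any library was 408 (*Abcb1a*). Total counts per library ran from 22916434 to 30708087. Values are given as CPM, the count of a gene scaled to the library total after TMM scaling (the composition factor of edgeR), or as CPM per kb of exon where genes are compared with each other. At 0 ppm, *Cldn5* had the highest level per exon length, 43.8 ± 3.05 CPM per kb (SD, n = 4). It was followed by *Rgs5* (24.7 CPM per kb), *Slco1c1* (13.4), *Mfsd2a* (12.01), *Cdh5* (7.36), *Pdgfrb* (7.22), *Kdr* (6.02), *Pecam1* (3.89), *Abcb1a* (2.92) and *Flt1* (2.27). The 4 control brains of *Cldn5* and *Rgs5*, of *Rgs5* and *Slco1c1*, and of *Mfsd2a* and *Cdh5* did not overlap per kb, while the other 6 neighbouring pairs in this order overlapped. *Cdh5* and *Pdgfrb* were the closest pair, and *Cdh5* was above *Pdgfrb* in 3 of the 8 brains. *Pdgfrb* was above *Kdr*, and *Kdr* above *Pecam1*, in each of the 8 brains, although their ranges met. Exon length was the union of the exons of all annotated transcripts of a gene, so this order depends on the annotation. The union was 13504 bp for *Flt1*, the lowest on this scale, and 1416 bp for *Cldn5*.

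**Figure D1:**
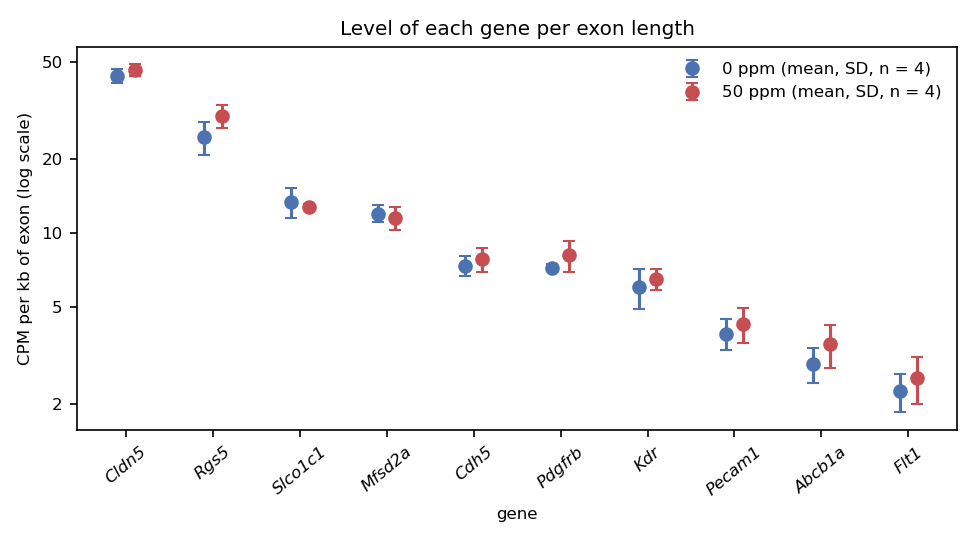
Level of each gene in CPM per kb of exon (log scale) at 0 ppm (blue) and 50 ppm (red), as mean and SD of 4 brains, in the order of the 0 ppm means. Levels run from 43.8 CPM per kb for *Cldn5* to 2.27 for *Flt1* at 0 ppm, and the order at 50 ppm differs only in that *Pdgfrb* (8.10) lies above *Cdh5* (7.83).

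Some libraries stood apart in marker genes of other regions. The 7 hindbrain and spinal cord marker genes summed to 0.341 and 3.31 CPM in 0 ppm replicates 1 and 2, against 46.5 and 55.4 CPM in the other control brains and 44.7 to 163 CPM in the exposed brains. *Hoxb5*, a positional gene that the paper places in the spinal cord and posterior tissues, was at 0 counts in 0 ppm replicate 1 and at 0.112 CPM in 0 ppm replicate 2. The cause was not tested, and values without both of these control brains, an alternative chosen after seeing the data, are given for the counts of members and of list genes. Among neuronal genes *Stmn2* was at 1512 ± 114 CPM at 0 ppm and 1526 ± 71.2 CPM at 50 ppm (SD, n = 4).

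No member passed an adjusted p under 0.05 for a difference between the doses by the quasi-likelihood test of edgeR, adjusted by Benjamini-Hochberg over 23113 genes, and each had an adjusted p of 0.999. The test called 4 genes in all, 0.0173% of those tested. One member, *Rgs5*, had an unadjusted p under 0.05, beside 3.75% of all tested genes (2.31% with the higher level at 50 ppm), and DESeq2 and limma-voom called 0 of the 10 at an adjusted p under 0.05. The CPM of the 2 doses overlapped for all 10 members, whereas they did not overlap for 2.09% of tested genes (1.19% higher and 0.904% lower at 50 ppm). Without 0 ppm replicates 1 and 2, *Abcb1a* and *Rgs5* had an unadjusted p under 0.05, beside 4.28% of all genes tested in that fit. The doses then did not overlap for *Slco1c1* and *Rgs5*, beside 10.9% of all genes, and 0 members passed an adjusted p under 0.05 in edgeR. The estimate was above 0 for 8 members and below 0 for *Mfsd2a* and *Slco1c1*, beside 49.0% of tested genes with an estimate above 0. The median log2 fold change of the members was 0.11, and it was -0.0033 over all tested genes. Over the 8724 genes at or above the mean CPM of the lowest member it was -0.013. In RNA from whole tissue, fewer cells of a type and less RNA per cell cannot be told apart.

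**Figure D2:**
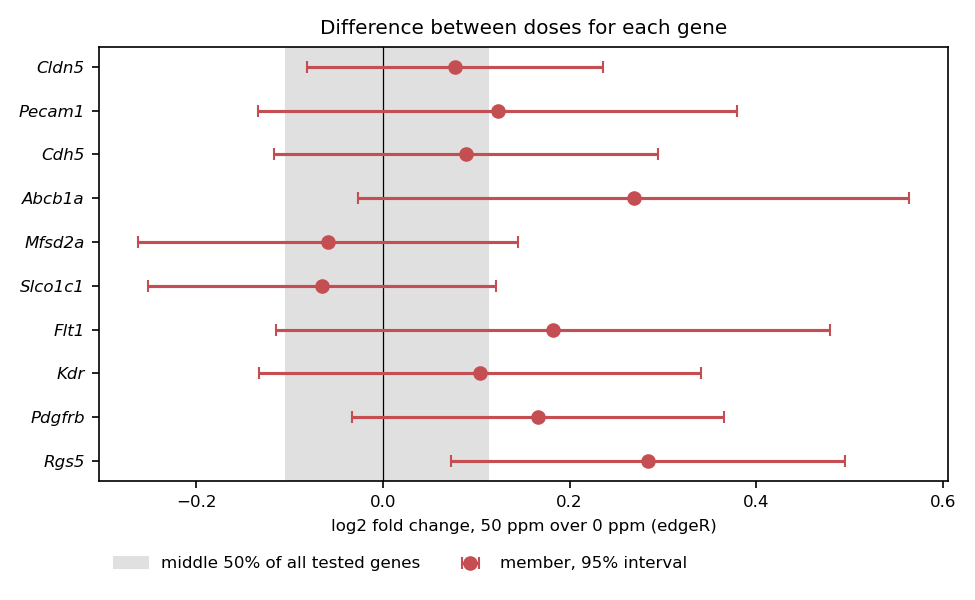
Log2 fold change of each gene, 50 ppm over 0 ppm, with its 95% interval from edgeR (4 brains per dose), and the range that holds the middle 50% of all 23113 tested genes in grey. That range includes genes of low count. For the 8724 genes at or above the mean CPM of the lowest member it runs from -0.058 to 0.034 (not drawn). The interval of *Rgs5*, from 0.07 to 0.49, is the one that does not include 0.

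Claudin-5 (*Cldn5*) is the main sealing protein of brain endothelial tight junctions. It was at 67.0, 58.0, 64.0 and 58.8 CPM in the 4 control brains and at 61.3, 63.6, 68.9 and 67.8 CPM in the exposed brains. Of the 50 ppm brains, 2 lay above every control and the other 2 lay inside the control range. Its log2 fold change was 0.08 with a standard error of 0.075, and its 95% interval ran from -0.081 to 0.24. A difference of more than 1.18-fold upward therefore lay outside the interval.

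VE-cadherin (*Cdh5*) joins endothelial cells at adherens junctions. In control brains its level was 35.0, 30.8, 29.7 and 28.2 CPM, and in exposed brains it was 31.0, 28.8, 37.4 and 34.5 CPM. The groups overlapped almost fully, with control replicate 1 second only to 50 ppm replicate 3. On the log2 scale the difference was 0.09 (95% interval -0.12 to 0.29).

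*Pecam1* encodes an adhesion molecule found on endothelial cells and also on platelets and leukocytes. The control brains gave 26.2, 20.9, 28.1 and 21.6 CPM, and the exposed brains gave 22.3, 23.1, 30.3 and 30.0 CPM. Both groups split into a low and a high pair, so that the spread within a dose (SD 3.50 and 4.31 CPM) exceeded the difference of the means, 24.2 and 26.4 CPM. The fitted log2 difference was 0.12 (95% interval -0.13 to 0.38). The ratio of *Cldn5* to *Pecam1* was 2.58 ± 0.222 at 0 ppm and 2.51 ± 0.278 at 50 ppm (SD, n = 4), and its groups overlapped.

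*Abcb1a* encodes P-glycoprotein, the efflux pump that keeps many lipophilic compounds out of the brain. It was at 13.9, 19.5, 14.3 and 16.2 CPM in control brains and at 18.2, 14.4, 22.3 and 22.2 CPM in exposed brains. The 2 highest exposed brains lay above every control, and 50 ppm replicate 2 lay near the lowest controls. The log2 fold change of 0.27 was the second largest of the members, with a standard error of 0.14 and a 95% interval from -0.027 to 0.56 (unadjusted p = 0.072). Opposite-strand genes overlap 10.1% of its exon length, and because the strand setting of the counting is not given in the sources used here, some of its counts may belong to them. The related gene *Abcb1b* was at 1.27 ± 0.175 CPM and 1.55 ± 0.175 CPM (SD, n = 4), and reads that match both genes make either level uncertain.

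*Mfsd2a* carries lysophospholipids with docosahexaenoic acid into the brain and is one of the genes that hold down vesicle transport across the endothelium. It was at 26.5, 25.9, 30.2 and 25.6 CPM at 0 ppm and at 24.6, 22.8, 27.9 and 28.5 CPM at 50 ppm. Its lowest pair of values came from exposed brains and its highest from control replicate 3. On the log2 scale *Mfsd2a* differed by -0.06 (95% interval -0.26 to 0.14).

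*Slco1c1*, the carrier of thyroxine at the blood-brain barrier, was at 80.5, 75.0, 59.9 and 62.6 CPM in the control brains. In the exposed brains it was at 67.9, 67.1, 64.1 and 66.6 CPM. The exposed brains lay inside the control range, between its low pair and its high pair. The high pair consisted of 0 ppm replicates 1 and 2, the brains with the lowest sums of hindbrain and spinal cord markers. The log2 fold change was -0.07 (95% interval -0.25 to 0.12) over all brains and 0.11 without this pair. The coefficient of variation was 14.1% at 0 ppm and 2.46% at 50 ppm, the second of which is close to the 2.36% that counting alone gives. *Slco1a4*, another organic anion carrier of the barrier, was at 6.32 ± 1.78 CPM and 5.53 ± 1.44 CPM (SD, n = 4).

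*Flt1* and *Kdr* encode the VEGF receptors VEGFR1, which binds VEGF-A tightly with weak signalling, and VEGFR2, which transmits most of the growth signal. *Flt1* was at 25.2, 27.8, 37.8 and 31.6 CPM at 0 ppm and at 31.4, 25.8, 39.5 and 42.3 CPM at 50 ppm. Its coefficient of variation was among the largest of the members in both groups (18.0% and 21.7%), and the groups overlapped. The log2 fold change was 0.18 (95% interval -0.11 to 0.48), and it was -0.0049 without 0 ppm replicates 1 and 2.

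*Kdr* was at 62.5, 40.5, 61.1 and 53.3 CPM in control brains and at 56.1, 52.3, 65.8 and 59.6 CPM in exposed brains. Control replicate 2 stood below the other 7 brains, which lay between 52.3 and 65.8 CPM. The fitted log2 difference was 0.10 (95% interval -0.13 to 0.34), and it was -0.013 without 0 ppm replicate 2. The ratio of *Flt1* to *Kdr* was 0.575 ± 0.122 at 0 ppm and 0.591 ± 0.0914 at 50 ppm (SD, n = 4). *Flt4*, the VEGFR3 gene of lymphatic and sprouting endothelium, was at 6.26 ± 0.707 CPM and 6.65 ± 1.28 CPM (SD, n = 4).

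The ligands of these receptors were measured in the same libraries. *Vegfa*, the main driver of brain angiogenesis, was at 27.0 ± 5.18 CPM at 0 ppm and 29.0 ± 4.20 CPM at 50 ppm (SD, n = 4). *Vegfb* was at 34.2 ± 2.43 CPM and 34.5 ± 2.24 CPM, and *Pgf*, which binds the *Flt1* receptor but not *Kdr*, was at 4.69 ± 1.03 CPM and 4.20 ± 0.805 CPM (SD, n = 4). The groups of all 3 ligand genes overlapped, and none had an unadjusted p under 0.05.

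*Pdgfrb* is the receptor through which pericytes are recruited to the vessel. It was at 41.0, 37.9, 39.5 and 39.7 CPM in control brains and at 36.9, 41.0, 49.2 and 50.4 CPM in exposed brains. The controls lay within a narrow band with a coefficient of variation of 3.28%, close to the 3.00% of counting alone. The exposed brains fell into a pair inside or just beyond that band and a pair above it. On the log2 scale the difference was 0.17 (95% interval -0.033 to 0.37, unadjusted p = 0.096). Its ligand gene *Pdgfb* was at 19.3 ± 1.34 CPM at 0 ppm and 19.0 ± 2.82 CPM at 50 ppm (SD, n = 4). The related receptor gene *Pdgfra*, which marks oligodendrocyte progenitors in the brain, was at 121 ± 7.45 CPM and 129 ± 8.28 CPM (SD, n = 4).

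*Rgs5*, a regulator of G protein signalling that is abundant in brain pericytes, was at 129, 88.1, 117 and 115 CPM in control brains. It was at 122, 127, 145 and 152 CPM in exposed brains. The 2 highest exposed brains lay above every control, the other 2 lay below control replicate 1 only, and control replicate 2 was the lowest of all. The log2 fold change of 0.28 (SE 0.10, 95% interval 0.073 to 0.49) is a 1.22-fold higher mean, with an interval from 1.05-fold to 1.41-fold. Its unadjusted p in edgeR was 0.011, rank 223 among all tested genes, and its adjusted p was 0.999. A two-sided exact permutation of the dose labels, with 70 possible arrangements, gave p = 0.0857, where the smallest p that 4 against 4 allows is 0.0286. Without 50 ppm replicate 4 the unadjusted p of *Rgs5* was 0.055, and without 0 ppm replicates 1 and 2 its log2 fold change was 0.23.

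The ratio of *Rgs5* to *Pdgfrb* was 2.83 ± 0.350 at 0 ppm and 3.09 ± 0.158 at 50 ppm (SD, n = 4). The ratio of *Pdgfrb* to *Pecam1*, mural to endothelial, was 1.65 ± 0.205 and 1.68 ± 0.0660 (SD, n = 4). Both ratios overlapped between the doses.

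**Figure D3:**
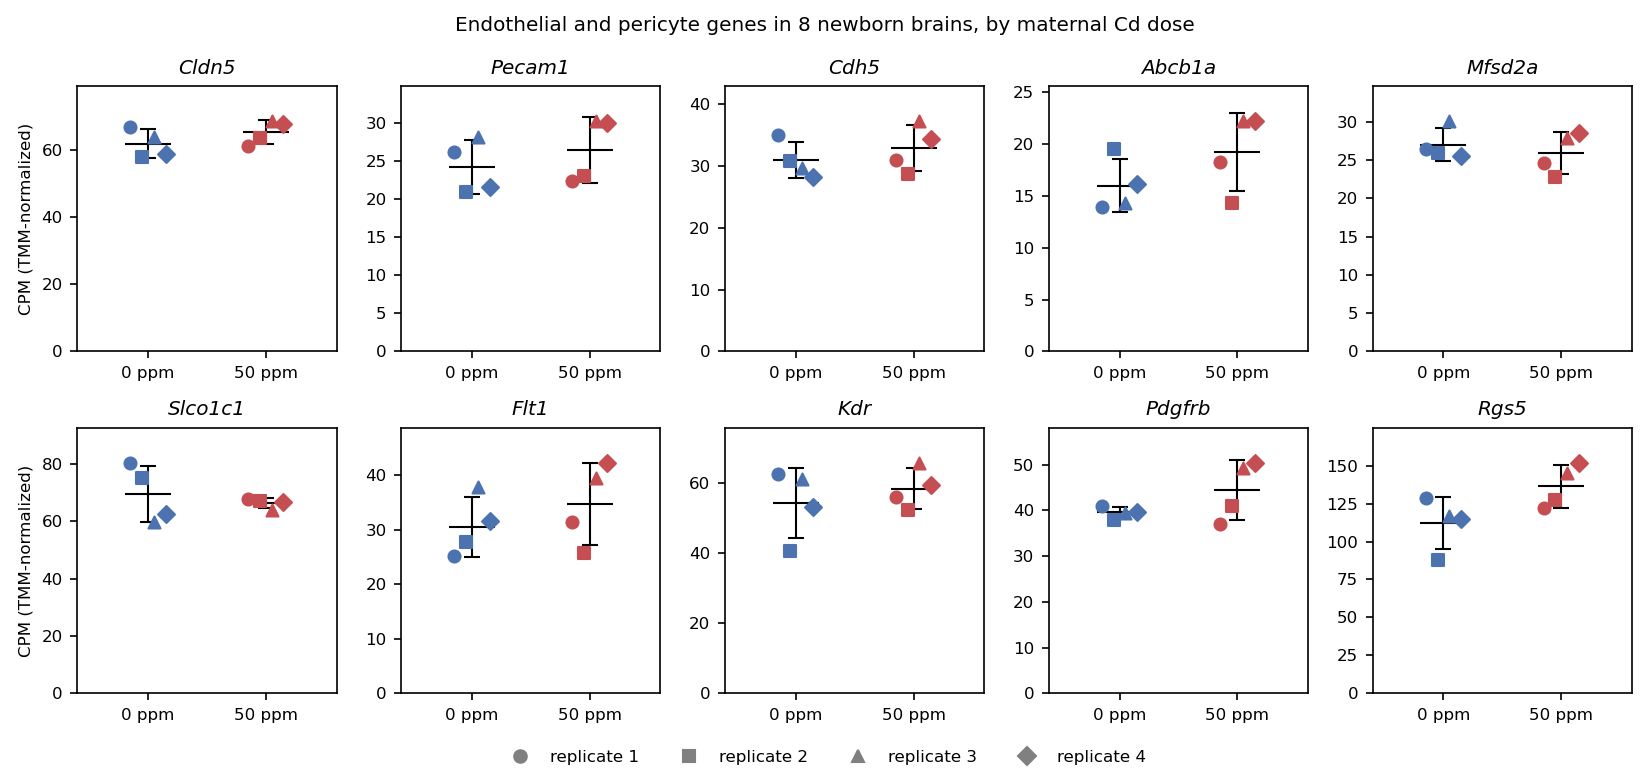
CPM of the 10 genes in each of 8 brains by maternal dose, with a marker shape for each replicate number and bars for mean and SD of 4 brains. The groups overlap in all 10 panels, and in the *Rgs5* panel the exposed brains run from 122 to 152 CPM against 88.1 to 129 CPM.

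Many members were highest in the same exposed brains. The highest library of a member was 50 ppm replicate 3 for 5 genes and 50 ppm replicate 4 for 3 genes, and these were the 2 highest exposed brains for 9 of the 10 members, all but *Slco1c1*. This pattern was noticed after the values had been seen, and this pair was likewise the highest of the exposed brains for 20.5% of all tested genes and 25.6% of the 8724 genes at or above the mean CPM of the lowest member. The lowest library was 0 ppm replicate 2 for 4 genes and 0 ppm replicate 1 for 2 genes. The summed CPM of the 10 genes ran from 424 to 507 at 0 ppm and from 466 to 554 at 50 ppm. For 8 of the 10 members the spread within both doses was at least 2.18 times that expected from counting, and *Pdgfrb* at 0 ppm and *Slco1c1* at 50 ppm came near it.

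Red cell genes were highest in the same pair of exposed brains. The 6 erythroid markers, all detected, summed to 128, 257, 259 and 312 CPM at 0 ppm and to 101, 157, 404 and 206 CPM at 50 ppm. Replicates 3 and 4 were the 2 highest exposed brains for 6 of these 6 genes, among them the globin gene *Hbb-bs* and the anion exchanger gene *Slc4a1*. This pair was also the highest for 7 of 9 basement membrane genes and 47 of the 100 vessel list genes described below. It was the highest for 2 of 9 fibroblast and meningeal, 3 of 7 microglial, 1 of 6 choroid plexus and 1 of 5 astrocyte genes. For neuronal genes it was 1 of 4, and for hindbrain and spinal cord genes 0 of 7. The share of all tested genes was 20.5%, and 25.6% among the 8724 genes at or above the mean CPM of the lowest member. In the control brains, in the same order as the erythroid sums, the 10 members summed to 507, 424, 481 and 452 CPM. The part of blood cells in the vessel values was not tested.

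**Figure D4:**
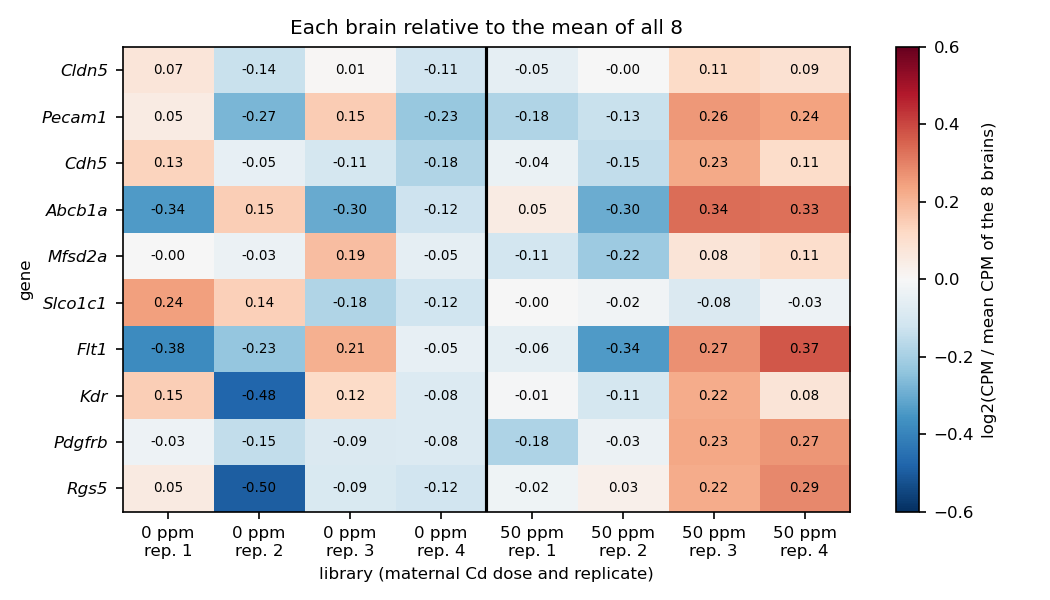
Log2 ratio of the CPM of each gene (rows) in each brain (columns) to the mean CPM of the 8 brains, red above and blue below the mean. The columns of 50 ppm replicates 3 and 4 are above the mean for 9 of the 10 genes, all but *Slco1c1*, and the lowest cell is *Rgs5* in 0 ppm replicate 2 at -0.50.

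Lists of genes of vessels and of the signals that act on them, called vessel lists here, were read in the same fit. All 100 of their 100 genes were tested. The lists also hold genes expressed by other cells, such as the neural ligand gene *Wnt7a*, so their values are not read as vessel RNA alone. An unadjusted p under 0.05 was reached by 9 of them (9%), 7 with the higher and 2 with the lower level at 50 ppm, beside 3.75% of all tested genes, and an adjusted p under 0.05 by 0 in edgeR. The groups did not overlap for 3, with *Erg* and *Sparc* higher and *Wnt7a* lower at 50 ppm, beside 1.19% of all tested genes higher and 0.904% lower. The estimate was above 0 for 65 and below 0 for 35 genes, with a median of 0.05, beside 49.0% of all tested genes above 0. Without 0 ppm replicates 1 and 2 the number with an unadjusted p under 0.05 was 11, beside 4.28% of all genes in either direction. The same 4.28% stands beside each count by list below that leaves these control brains out.

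Of the 8 junction and adhesion genes, 6 had an estimate above 0, beside 49.0% of all tested genes. An unadjusted p under 0.05 in edgeR was reached by 0 of the 8. *Cgnl1*, which encodes the junction protein paracingulin, was at 27.0 ± 3.82 CPM at 0 ppm and 30.5 ± 1.54 CPM at 50 ppm (SD, n = 4), and its log2 fold change was 0.18. An unadjusted p under 0.05 in 1 gene was found in this list without 0 ppm replicates 1 and 2. The scaffold gene *Tjp1* was at 109 ± 8.50 and 113 ± 7.81 CPM, and *Jam2*, an adhesion molecule gene, was at 38.4 ± 2.68 and 40.9 ± 2.06 CPM (SD, n = 4). *Ocln*, which encodes the junction protein occludin, had a log2 fold change of -0.30 (unadjusted p = 0.056).

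Of the 13 transport genes, 1 had an unadjusted p under 0.05, beside 3.75% of all tested genes. *Tfrc*, the transferrin receptor gene, through which iron enters the brain endothelium, was at 147 ± 36.2 CPM and 192 ± 26.0 CPM (SD, n = 4). Its log2 fold change was 0.38 (unadjusted p = 0.012), and its groups overlapped. The number of transport genes with an unadjusted p under 0.05 was 2 without 0 ppm replicates 1 and 2. The amino acid carrier gene *Slc7a5* was at 201 ± 17.0 and 205 ± 24.99 CPM, and the monocarboxylate carrier gene *Slc16a1* at 55.4 ± 10.9 and 63.0 ± 7.09 CPM (SD, n = 4).

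None of the 16 genes of VEGF, angiopoietin and tip cell signalling had an unadjusted p under 0.05, and their median log2 fold change was 0.0086. With 0 ppm replicates 1 and 2 left out, 1 of them had an unadjusted p under 0.05, with the lower level at 50 ppm. The co-receptor gene *Nrp1* was at 101 ± 5.38 and 97.7 ± 16.3 CPM, and *Nrp2* at 199 ± 38.3 and 183 ± 23.3 CPM (SD, n = 4). *Angpt2*, a ligand gene of vessel remodelling, was at 5.73 ± 1.85 and 6.56 ± 0.808 CPM (SD, n = 4).

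Among 21 other endothelial genes, 2 had an unadjusted p under 0.05, both higher at 50 ppm, beside 2.31% of all tested genes. An estimate above 0 was found in 16 of the 21, beside 49.0% of all tested genes. The count of those with an unadjusted p under 0.05 was 1 without 0 ppm replicates 1 and 2. *Erg*, a transcription factor gene of the endothelium, was at 7.07, 5.73, 6.89 and 5.81 CPM in controls and at 7.19, 7.44, 11.3 and 8.65 CPM in exposed brains. The groups of *Erg* did not overlap, with a gap between 7.07 and 7.19 CPM, and the log2 fold change was 0.44 (unadjusted p = 0.012). *Vwf*, which encodes the von Willebrand factor of endothelial storage granules, was at 33.5, 44.7, 53.1 and 37.3 CPM in controls and at 35.0, 38.0, 88.4 and 88.5 CPM in exposed brains. The estimate for *Vwf* (0.56) thus came from replicates 3 and 4, since replicates 1 and 2 lay within the control range. *Cd93*, an endothelial surface protein gene, was at 44.9 ± 8.54 and 46.5 ± 5.35 CPM (SD, n = 4).

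Wnt ligands from neural progenitors induce barrier genes in the endothelium. Of the 14 genes of this pathway, 1 had an unadjusted p under 0.05, beside 3.75% of all tested genes. *Wnt7a*, one of those ligands, was at 28.0, 24.1, 26.9 and 26.8 CPM in controls and at 22.6, 22.6, 20.1 and 22.6 CPM in exposed brains. All exposed brains were below all controls, and the log2 fold change was -0.27 (SE 0.089, unadjusted p = 0.0079, adjusted p = 0.999 in edgeR). The co-receptor gene *Lrp6* was at 79.8 ± 2.40 and 79.0 ± 12.4 CPM and the Wnt target gene *Apcdd1* at 104 ± 7.75 and 107 ± 8.98 CPM (SD, n = 4). *Foxq1*, a transcription factor gene of brain endothelium, was at 5.34 ± 0.279 and 5.99 ± 0.624 CPM (SD, n = 4).

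Of 11 pericyte genes, 2 had an unadjusted p under 0.05, both higher at 50 ppm, beside 2.31% of all tested genes. The list median was 0.15. *Kcnj8* and *Abcc9* encode the pore and the regulatory subunit of the ATP-sensitive potassium channel of pericytes. *Kcnj8* was at 4.97 ± 1.11 and 6.80 ± 0.747 CPM (log2 fold change 0.45), and *Abcc9* at 20.97 ± 3.72 and 25.7 ± 4.55 CPM (log2 fold change 0.29; SD, n = 4). Without 0 ppm replicates 1 and 2 these estimates were 0.33 and 0.13, and 0 pericyte genes had an unadjusted p under 0.05 in edgeR. *Notch3*, a receptor gene of mural cells, was at 55.6 ± 3.82 and 60.3 ± 3.29 CPM, and *Vtn*, which encodes the matrix protein vitronectin, at 47.2 ± 6.93 and 52.1 ± 2.26 CPM (SD, n = 4).

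Of 8 smooth muscle genes, 1 had an unadjusted p under 0.05 and a lower level at 50 ppm, beside 1.44% of all tested genes. That gene was the myosin light chain kinase gene *Mylk*, at 15.8 ± 1.12 and 13.5 ± 0.687 CPM (SD, n = 4). The other 7 genes had estimates above 0, none with an unadjusted p under 0.05, and the list median was 0.38. Counts per library were low for *Cnn1* (4 to 26), *Mustn1* (9 to 23) and *Des* (27 to 59). The lowest of all brains was 0 ppm replicate 4 for *Acta2*, *Tagln*, *Myh11* and *Cnn1*, but not for *Des*, *Myl9* and *Mustn1*. The list median is therefore not read as a difference of the whole list. With 0 ppm replicates 1 and 2 left out, 3 smooth muscle genes had an unadjusted p under 0.05, all higher at 50 ppm. That count stands beside 4.28% of all genes in either direction. *Acta2*, the smooth muscle actin gene, was at 7.87 ± 2.24 and 10.1 ± 1.16 CPM (SD, n = 4), with an overlap of the groups.

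Of 9 basement membrane genes, 2 had an unadjusted p under 0.05, beside 3.75% of all tested genes. *Nid1*, which encodes the linker protein nidogen, was at 106 ± 12.9 and 130 ± 17.7 CPM (SD, n = 4), with a log2 fold change of 0.29. *Sparc*, which encodes a collagen-binding matrix protein, was at 300.1, 287, 310.2 and 268 CPM in controls and at 314, 341, 323 and 352 CPM in exposed brains. Its groups did not overlap, and its log2 fold change was 0.19 (unadjusted p = 0.012). The collagen IV gene *Col4a1* was at 310.3 ± 25.2 and 305 ± 62.9 CPM (SD, n = 4).

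**Figure D5:**
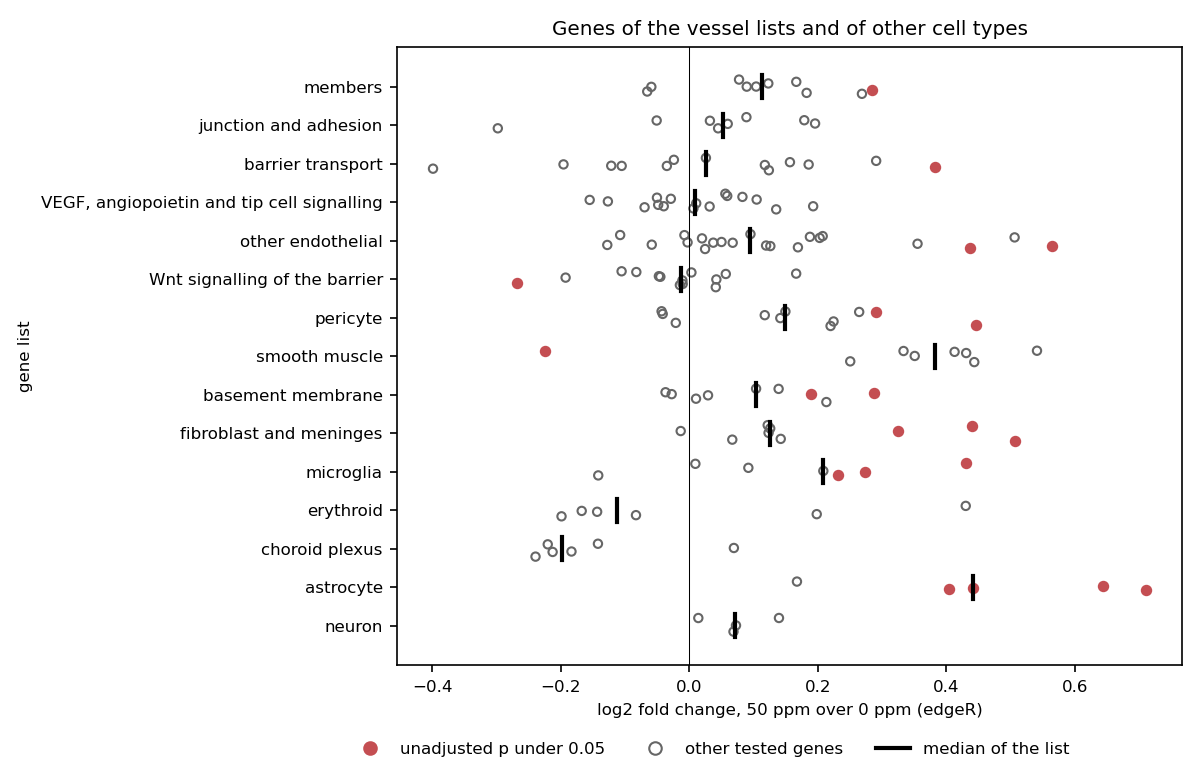
Log2 fold change (50 ppm over 0 ppm, edgeR) of each tested gene in the vessel lists and in lists of other cell types, with the list median as a bar and filled points for an unadjusted p under 0.05. The member median is 0.11 and that of astrocyte genes is 0.44, and the hindbrain and spinal cord list, whose median is 1.81, lies beyond the axis and is not drawn.

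Markers of other cell types were read in the same fit, and their part in the vessel values was not tested. Of 5 astrocyte genes, all detected, 4 had an unadjusted p under 0.05 and a higher level at 50 ppm, beside 2.31% of all tested genes. Without 0 ppm replicates 1 and 2 this count was again 4, beside 4.28% of all genes in either direction. The 5 genes summed to 481 to 652 CPM at 0 ppm and 693 to 871 CPM at 50 ppm. *Aqp4*, the water channel gene of the astrocyte endfeet that cover the capillaries, was at 82.2, 57.8, 117 and 85.9 CPM in controls and at 146, 147, 112 and 156 CPM in exposed brains. One exposed brain, replicate 3, lay below control replicate 3, so the groups overlapped, and the log2 fold change was 0.71 (adjusted p = 0.27 in edgeR), or 0.46 without 0 ppm replicates 1 and 2. The astrocyte glutamate transporter gene *Slc1a2* was at 235 ± 22.8 and 264 ± 31.0 CPM (SD, n = 4).

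Of 9 fibroblast and meningeal genes, all detected, 3 had an unadjusted p under 0.05 and a higher level at 50 ppm, beside 2.31% of all tested genes. This count was again 3 without 0 ppm replicates 1 and 2. The 9 genes summed to 724 to 884 CPM at 0 ppm and 901 to 1073 CPM at 50 ppm. Their log2 fold changes ran from -0.013 (*Lum*) to 0.51 (*Ptgds*), with a median of 0.13, so the sum does not describe each gene. *Ptgds*, the prostaglandin D synthase gene, was at 243 ± 25.1 and 345 ± 72.5 CPM (SD, n = 4). *Aldh1a2*, a retinoic acid synthesis enzyme gene, was at 16.6 ± 0.744 and 22.5 ± 1.88 CPM (SD, n = 4). The paper lists *Ptgds* and *Aldh1a2* among genes associated with oligodendrocytes or myelination. Of 7 microglial genes, all detected, 3 had an unadjusted p under 0.05 and a higher level at 50 ppm, beside the same 2.31%. Without 0 ppm replicates 1 and 2 the microglial count was 2. The 7 microglial genes summed to 76.5 to 88.1 CPM at 0 ppm and 90.1 to 109 CPM at 50 ppm. Among these, *Csf1r* was at 32.2 ± 2.89 and 37.8 ± 3.59 CPM and *P2ry12* at 8.01 ± 1.53 and 10.8 ± 2.16 CPM (SD, n = 4). The microglial log2 fold changes ran from -0.14 (*Aif1*) to 0.43 (*P2ry12*), and that of *Tmem119* was 0.0095.

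The 6 choroid plexus genes, all detected, summed to 462 to 1203 CPM at 0 ppm and 357 to 804 CPM at 50 ppm, and 0 had an unadjusted p under 0.05 in edgeR. Their median log2 fold change was -0.20. Without 0 ppm replicates 1 and 2 it was 0.10, and again 0 of them had an unadjusted p under 0.05 in edgeR. *Ttr*, the transthyretin gene, was at 634 ± 332 and 538 ± 173 CPM, and *Otx2* was at 18.1 ± 4.07 and 15.7 ± 3.84 CPM (SD, n = 4). All 7 hindbrain and spinal cord genes had an unadjusted p under 0.05 and a higher level at 50 ppm, beside 2.31% of all tested genes. Among them was the glycine transporter gene *Slc6a5*, at 13.6 ± 14.2 and 36.1 ± 14.6 CPM (SD, n = 4). Without 0 ppm replicates 1 and 2 the number of these genes with an unadjusted p under 0.05 was 4. The log2 fold change was then 0.48 in place of 1.41 for *Slc6a5* and 1.34 in place of 2.33 for *Hoxb5*. Of 5 neuronal genes 4 were tested, and 0 had an unadjusted p under 0.05 in edgeR, with or without 0 ppm replicates 1 and 2. The list summed to 2099 to 2447 CPM at 0 ppm and 2306 to 2494 CPM at 50 ppm, with *Snap25* at 245 ± 13.3 and 269 ± 17.05 CPM (SD, n = 4).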

How the data were processed

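Poly(A) RNA from a portion of each of 8 pulverized whole brains was sequenced as 125 bp single-end reads from directional libraries. Per the labels and the paper's methods, the authors cut low-quality bases from read starts, used STAR to align to the Ensembl reference of each strain, counted reads per gene with HTSeq and deposited raw counts, with no normalization, in a table for each parental genome. The versions of these tools, their mapping settings and the strand setting of the counting are not given in the sources used here. The table for the C57BL/6J genome was used, and that for the CAST/EiJ genome was not used here, because its identifiers could not be paired with the gene symbols.

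Groups were taken from the treatment labels, and replicate numbers only name brains. The labels name no batch. Same-dose libraries differed by 9.28 to 22.7 times the chi-square expected from sampling, per degree of freedom. Symbols (49326 of 49585 identifiers) and exon lengths came from the GRCm38 annotation. Genes at 0 counts in over 2/3 of libraries were not tested, which left 23113. Counts were normalized by TMM and tested with edgeR 4.0.16 (glmQLFit and glmQLFTest, treatment as the only term) in R 4.3.3, with Benjamini-Hochberg adjustment over all tested genes and a threshold of 0.05. Intervals are 95% intervals of the fitted log2 fold change. Permutation tests used log2(CPM + 0.5). Counting error is the Poisson share of the mean count and covers counting only.

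Named were the 10 members, their relatives and ligands, the 2 most abundant genes and the 2 with the smallest p of each vessel list, and 1 of each kind in lists of other cells. *Tubb3* and *Egfl7* were chosen after their values were seen. Some genes are not reported here and were left out of the lists. The members and lists were chosen with earlier results of these data known. Alternatives were DESeq2 1.42.0, its size factors in edgeR, library totals without TMM, no filter, at least 10 counts in at least 4 libraries, a robust fit, limma-voom (limma 3.58.1) with sample weights, and each library left out. The code was tested on simulated data. Figures were drawn with matplotlib 3.10.9.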

Additional observations from a re-analysis of the deposited data

How the results depend on the processing

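No member passed an adjusted p under 0.05 under any alternative run. The median log2 fold change of the members stayed between 0.06 and 0.17. The number of all genes past the adjusted threshold was 4 in the reported fit, 18 with DESeq2, 52 without a filter, 2 with the filter of 10 counts in 4 libraries, 1 with limma-voom, 7 without 0 ppm replicates 1 and 2 (added after seeing the data), and 2 to 20 with 1 library left out. Members with an unadjusted p under 0.05 numbered 1 as reported, 2 without a filter, 2 without 0 ppm replicates 1 and 2, and 0 to 3 with 1 library left out (0 without 50 ppm replicate 4, 3 without 50 ppm replicate 2). Vessel list genes with an unadjusted p under 0.05 numbered 9, 14 without a filter, and 5 to 15 with 1 library left out (5 without 50 ppm replicate 3, 15 without 0 ppm replicate 3 or 50 ppm replicate 1). Members whose groups did not overlap numbered 0, beside 2.09% of all tested genes, and 2 without 0 ppm replicates 1 and 2, beside 10.9%. With 1 library left out they numbered 0 to 1 (1 without 0 ppm replicate 1). An unadjusted p under 0.05 was reached by 3.75% of all tested genes as reported and by 4.28% without 0 ppm replicates 1 and 2. Shares of all genes are not given for the other alternatives, so their counts are not read as results about the members or the lists. The cause of these shifts was not tested.

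Of 58 named genes, 43 kept the sign of the log2 fold change in every alternative. With 1 library left out, the estimate changed sign for *Slco1c1* (-0.13 to 0.013), *Kdr* (-0.013 to 0.18), *Vegfb* (-0.030 to 0.041), *Pdgfb* (-0.10 to 0.045), *Slc7a5* (-0.039 to 0.091), *Nrp1* (-0.12 to 0.034), *Cd93* (-0.071 to 0.14), *Lrp6* (-0.090 to 0.056), *Col4a1* (-0.15 to 0.067), *Hbb-bs* (-0.67 to 0.10), *Ttr* (-0.44 to 0.19) and *Stmn2* (-0.032 to 0.054). Without 0 ppm replicates 1 and 2 it was 0.11 for *Slco1c1*, -0.0049 for *Flt1*, 0.19 for *Slco1a4*, -0.11 for *Vegfa*, -0.0090 for *Cd93*, 0.29 for *Ttr* and -0.042 for *Stmn2*. *Ptgds*, *Aldh1a2*, *Hoxb5* and *Aqp4* passed the adjusted threshold in at least 1 alternative.

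No paired analysis was possible because the labels give no replicate numbers that the groups share.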

Other observations

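The endothelial gene *Egfl7* had a mean of 0.49 CPM at 0 ppm and 0.53 CPM at 50 ppm, and the neuronal gene *Tubb3* was listed at 0 counts in all 8 brains. Other genes on the same strand overlap 9.41% of the exon length of *Egfl7* and 0% of that of *Tubb3*. How reads that match more than 1 gene were counted is not given in the sources used here, and these values are not read as low or absent expression. Both were chosen after their values had been seen.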
